A study of Mus musculus with 4 samples.

Results

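Expression of 5 MAP kinase phosphatase genes that are induced by neuronal activity, Dusp1, Dusp4, Dusp5, Dusp6 and Dusp14, was followed across 4 arrays of mouse prefrontal cortex. The members were the spots whose gene name in the scanner files was one of these symbols. They were 9 probes of 56605 non-control probes, with 1 probe each for Dusp1 and Dusp6, 2 each for Dusp4 and Dusp5, and 3 for Dusp14. All 9 were well above background on all 4 arrays, so no member was lost to a filter.

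The mice were 3-month-old B6J animals in 4 groups that crossed diet with genotype. They were wild-type or heterozygous for Glo1, which encodes the methylglyoxal-detoxifying enzyme glyoxalase 1, and their diet from postnatal day 21, for about 70 days, was based on starch or on sucrose. Starch-fed wild-type mice were the control named by the labels. For each group, 3 independent RNA samples were mixed, labelled with Cy3 and hybridised to 1 array. Each group is therefore a single pool, so a difference between 2 arrays has no error of its own and was not tested.

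MAP kinases such as ERK are switched on by phosphorylation of a threonine and a tyrosine in their activation loop, and dual-specificity phosphatases (Dusp) remove both phosphates. Several of these phosphatases are themselves transcribed when ERK or calcium signalling is active, which makes them delayed brakes on the pathway and transcript markers of recent activity in cortical neurons. Dusp1, Dusp4 and Dusp5 act in the nucleus, Dusp6 acts on ERK in the cytoplasm, and Dusp14 is a small phosphatase without the kinase-docking domain of the others.

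The start-site regions of these genes differ in the elements that link transcription to activity. RefSeq promoter windows (GRCm38.p6, 250 bases before to 50 after the start) were matched for 4 of the 5 members by symbol. No window was matched for Dusp4. The 250 bases before the start are shown for Dusp1 and Dusp5, because these hold the cAMP response element and CArG matches, and because the signals of these genes differed in their order over the arrays. Capitals mark matches to the cAMP response element TGACGTCA or its core TGACG, and to the CArG box, the serum response factor element.
Dusp1, chr17:26508473-26508722, minus strand: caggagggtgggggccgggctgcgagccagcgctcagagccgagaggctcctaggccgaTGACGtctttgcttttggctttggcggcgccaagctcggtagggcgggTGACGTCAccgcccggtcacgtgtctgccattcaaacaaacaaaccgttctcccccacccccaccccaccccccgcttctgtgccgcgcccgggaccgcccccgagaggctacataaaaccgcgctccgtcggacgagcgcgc
Dusp5, chr19:53528895-53529144, plus strand: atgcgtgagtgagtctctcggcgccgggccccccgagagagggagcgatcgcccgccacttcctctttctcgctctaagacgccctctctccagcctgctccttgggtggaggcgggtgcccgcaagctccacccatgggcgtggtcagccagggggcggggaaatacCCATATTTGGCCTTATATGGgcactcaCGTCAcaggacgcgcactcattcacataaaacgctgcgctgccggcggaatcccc

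Both strands were searched in the 300-base windows of all genes. The Dusp1 window held the full TGACGTCA from position -143, counted from the start site with -1 as the base before it, and a further TGACG at -191. TGACGTCA was found in 1.79% of 32851 windows, and TGACG, which it contains on both strands, in 20.8%. The Dusp5 window held a pair of abutting CArG boxes from -82 and -72 and a TGACG on the opposite strand at -55, and 1.63% of windows held a CArG box. The ETS core GGAAG occurred in the Dusp5, Dusp6 and Dusp14 windows and in 71.4% of all windows. The AP-1 element TGANTCA, the Egr element GCGNGGGCG and the glucocorticoid response element were not matched in any of the 4 windows. They were found in 7.81%, 5.55% and 0.426% of all windows. These are letter matches in a short window and say nothing of binding. Whether they bear on the order of the arrays was not tested.

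**Figure D1:**
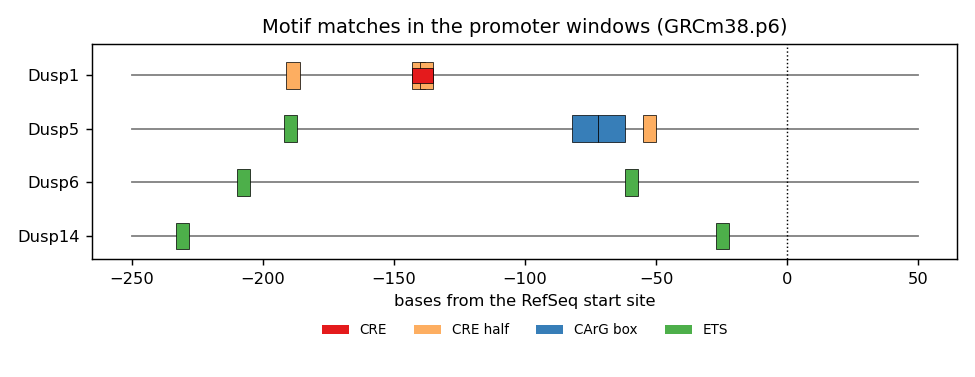
Motif matches in the RefSeq promoter windows of 4 members, in bases from the start site (x axis), with 1 line per gene. Red marks TGACGTCA, orange TGACG, blue CArG boxes and green GGAAG; Dusp1 carries the full TGACGTCA at -143 and Dusp5 the pair of CArG boxes from -82 and -72.

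Of the non-control spots, 77.6% to 80.2% were well above background on each array, and no spot was saturated. Levels are given here as multiples of the array's 75th percentile of signal, and changes as log2 differences of these levels. The level of Glo1 went with the genotype labels, at 4.04 and 5.53 on the wild-type starch and sucrose arrays and at 2.74 and 3.04 on the heterozygous ones. All 8 listed markers of cortical excitatory neurons were detected, with summed levels of 63.0 and 86.3 on the wild-type starch and sucrose arrays and of 79.2 and 81.5 on the heterozygous ones. Markers of neighbouring tissue differed between arrays as well. The summed level of 6 olfactory bulb markers was 8.45 and 7.87 on the wild-type and heterozygous starch arrays, 1.93 on the wild-type sucrose array and 4.51 on the heterozygous sucrose array. That of 10 striatal neuron markers was 56.4 on the wild-type sucrose and 52.5 on the heterozygous starch array, against 34.2 on the wild-type starch and 29.4 on the heterozygous sucrose array. The sum of 9 choroid plexus markers was 43.7 on the heterozygous sucrose array and 15.8 to 16.5 on the others, and that of 7 blood genes was 155.0 and 132.0 on the starch and 74.1 and 84.3 on the sucrose arrays. In such bulk samples fewer cells of a type and less RNA per cell cannot be told apart.

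On sucrose, 4 of the 5 phosphatases had a lower signal than on starch in both genotypes, while Dusp1 was higher in wild-type and lower in heterozygous mice. Among all 20655 detected genes, taken at their brightest probe, 30.2% were lower on sucrose in both genotypes. The median change of the 5 members was -0.24 in wild-type mice, with a range of -1.05 to 0.40, and -0.46 in heterozygous mice, with a range of -0.64 to -0.34. The median over all genes was 0.00 in both. The members fell into 3 patterns over the 4 arrays. Dusp4 and Dusp5 were lowest on the wild-type sucrose array, Dusp6 and Dusp14 were low on both sucrose arrays, and Dusp1 was high on the wild-type sucrose and heterozygous starch arrays.

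**Figure D2:**
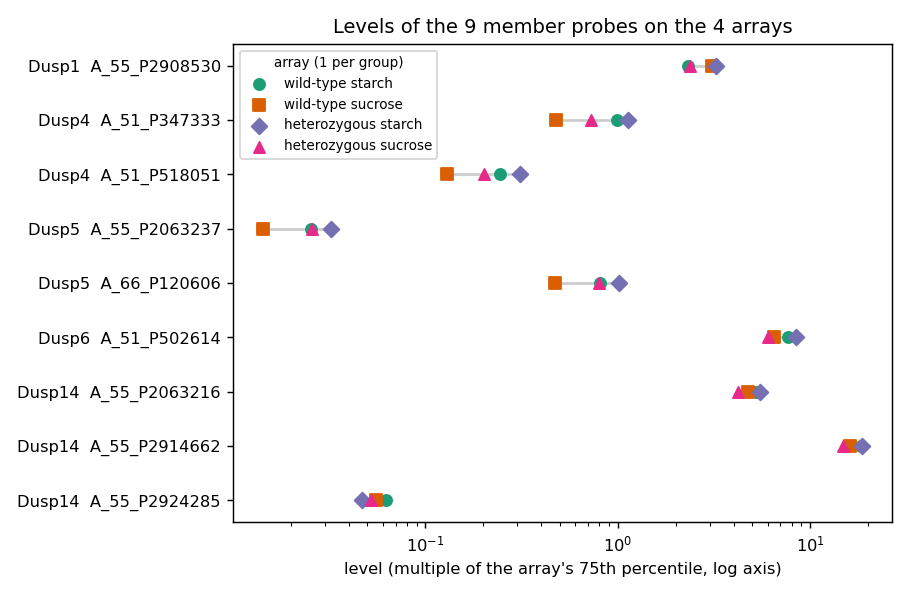
Level of each of the 9 member probes (rows) as a multiple of the array's 75th percentile on a log axis, with 1 marker per array and a grey line over the range. The wild-type sucrose array (orange squares) is the lowest at both Dusp4 and both Dusp5 probes, and the heterozygous starch array (purple diamonds) is the highest at every probe except A_55_P2924285 of Dusp14.

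Dusp4, a nuclear phosphatase of ERK and JNK, had the lowest diet changes of the 5. Its brighter probe (A_51_P347333, mm9 chromosome 8, 35884806 to 35884865, plus strand) read 0.994 on the wild-type starch, 0.479 on the wild-type sucrose, 1.13 on the heterozygous starch and 0.73 on the heterozygous sucrose array. Each sucrose array thus lay below each starch array. The sucrose signal was 48.2% of the starch signal in wild-type mice (a change of -1.05) and 64.4% in heterozygous mice (-0.64). Its other probe (A_51_P518051, chromosome 8, 35882045 to 35882104) was annotated to a different transcript entry. That probe read 0.244, 0.129, 0.31 and 0.201 in the same order of arrays. It gave changes of -0.92 and -0.62, so both probes placed the 4 arrays in the same order.

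Dusp4 alone was at least 2-fold lower on sucrose in wild-type mice, as were 0.992% of genes, and no member was in heterozygous mice, where 0.479% of genes were. Its mean over probes and the normexp background correction brought it just under 2-fold, and its values over 9 settings ran from -1.08 to -0.98. At 1.5-fold, Dusp4 and Dusp5 were lower in wild-type mice (3.53% of genes) and Dusp4 in heterozygous mice (2.0% of genes). Dusp4 was the member that passed 1.5-fold in both genotypes, as 0.804% of genes did.

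Dusp5, a nuclear phosphatase specific for ERK, showed nearly the same pattern at a smaller size. Its brighter probe (A_66_P120606, chromosome 19, 53616779 to 53616838, plus strand) read 0.81 on the wild-type starch, 0.469 on the wild-type sucrose, 1.02 on the heterozygous starch and 0.794 on the heterozygous sucrose array. The wild-type sucrose array stood alone at the bottom, and the heterozygous sucrose array lay close to the wild-type starch array. The sucrose signal was 57.9% of the starch signal in wild-type mice (-0.79) and 77.7% of it in heterozygous mice (-0.36). The dimmer probe (A_55_P2063237, 53615682 to 53615741) lay at the 13.0th percentile of signal with levels of 0.0144 to 0.0325, and gave -0.82 and -0.34. Over the pairwise comparisons, the dim and the bright probe of Dusp5 differed by at most 0.07 under the main processing.

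Dusp6, the cytoplasmic ERK phosphatase that is induced by ERK itself, was measured by 1 bright probe (A_51_P502614, chromosome 10, 98729985 to 98730044, plus strand). It read 7.65 on the wild-type starch, 6.45 on the wild-type sucrose, 8.42 on the heterozygous starch and 6.01 on the heterozygous sucrose array. Both sucrose arrays lay below both starch arrays. The changes were -0.24 in wild-type mice, or 84.4% of the starch signal, and -0.49 in heterozygous mice, or 71.3%.

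Dusp14, which acts on MAP kinases and on other signalling proteins, was the brightest member. Its probe A_55_P2914662 (chromosome 11, 83861547 to 83861606, minus strand) read 18.4 on the wild-type starch, 16.1 on the wild-type sucrose, 18.7 on the heterozygous starch and 14.8 on the heterozygous sucrose array. The changes on sucrose were -0.20 and -0.34, and the neighbouring probe A_55_P2063216 (83861916 to 83861975) gave -0.14 and -0.39. The change at gene level was -0.12 in wild-type mice after quantile normalisation and -0.20 in heterozygous mice as the mean over the 3 probes. Both sucrose arrays were below both starch arrays at each of these probes.

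The other Dusp14 probe did not share that order. A_55_P2924285 was annotated to a different transcript of the gene, its 60 bases spanned 551 genomic bases (83882038 to 83882588), and 48 of them matched the RefSeq window before the Dusp14 start without a break. It was dim, at 0.0624, 0.0553, 0.0471 and 0.0519 in the order used above, and the wild-type starch array was the highest. Its diet changes were -0.17 and 0.14. The gap between Dusp14 probes in heterozygous mice was 0.53, where probes of Dusp4 and Dusp5 differed by 0.01 and 0.02.

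Dusp1, a nuclear phosphatase of p38, JNK and ERK, had diet changes of opposite sign in the genotypes. Its single probe (A_55_P2908530, chromosome 17, 26642624 to 26642683, minus strand) read 2.33 on the wild-type starch, 3.08 on the wild-type sucrose, 3.24 on the heterozygous starch and 2.36 on the heterozygous sucrose array. The array with neither factor changed and the array with both lay together at the bottom, and the arrays with 1 factor changed lay together at the top. The change on sucrose was 0.40 in wild-type and -0.46 in heterozygous mice, a difference of -0.86, and heterozygous sucrose against wild-type starch differed by 0.01. Dusp1 alone was past 1.5-fold on the lower side in this difference of diet changes, as were 2.76% of genes.

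Spots of a probe printed 10 times on each array give the scale of spot-to-spot variation. From 291 such probes in the brightest quartile of signals, the SD of a difference between arrays was 0.07. In the next quartile it was 0.12, from 5 probes, and in the one below 0.13, from 3 probes. At their brightest probes, the diet changes of all 5 members were larger than these SDs in both genotypes. This spread covers printing and hybridisation within an array, and leaves out differences between mice, pools and arrays.

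**Figure D3:**
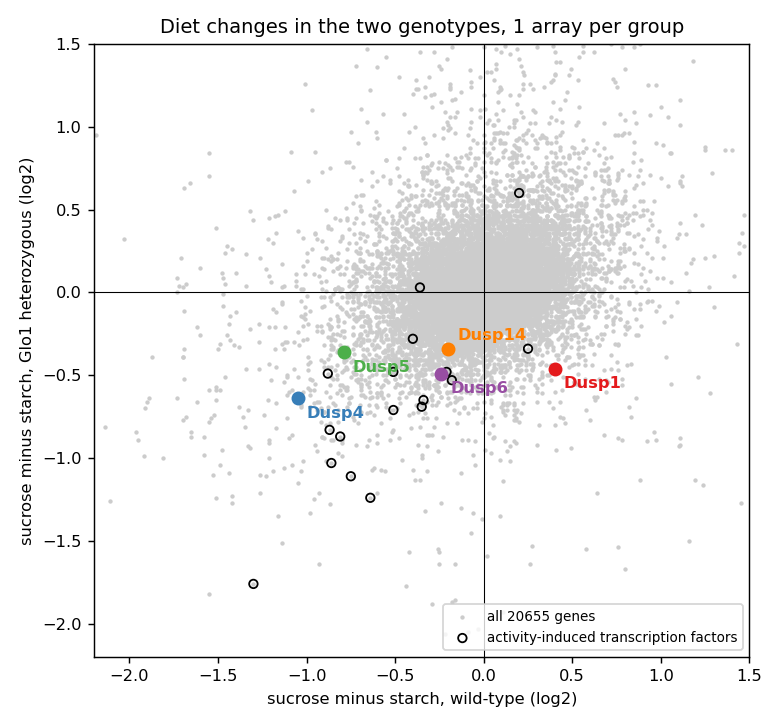
Log2 change on sucrose in wild-type mice (x axis) against that in Glo1 heterozygous mice (y axis), 1 point per gene at its brightest probe. Grey points are all 20655 genes, of which 187 lie outside the axes; open circles are 17 activity-induced transcription factors; coloured points are the members, with Dusp4, Dusp5, Dusp6 and Dusp14 in the lower left quadrant and Dusp1 in the lower right.

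Heterozygous mice had more Dusp4 and Dusp5 signal than wild-type mice on either diet. On starch, each of the 5 was higher in heterozygous than in wild-type mice, from 0.02 for Dusp14 to 0.47 for Dusp1. The median was 0.19 against -0.02 for all genes, of which 54.0% were lower. The sign for Dusp14 turned to -0.10 when the mean of its 3 probes was used, and no member was at least 1.5-fold higher on starch, where 1.48% of genes were. On sucrose, Dusp5 was higher in heterozygous mice by 0.76 and Dusp4 by 0.61, past 1.5-fold as were 3.29% of genes, while Dusp1 was lower by -0.38, Dusp14 by -0.12 and Dusp6 by -0.10. Scaling to the median brought Dusp4 to 0.56, under 1.5-fold. Dusp4 and Dusp5 were the members higher with heterozygosity on both diets, as 24.2% of genes were. Between heterozygous sucrose and wild-type starch no member was at least 1.5-fold lower, where 3.39% of genes were, and the values ran from -0.45 for Dusp4 to 0.01 for Dusp1.

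The diet and genotype terms were also fitted across all 42094 probes with limma in an additive model, which leaves 1 residual degree of freedom among the 4 arrays. It counts any difference between the genotypes in the diet change as error. For diet, limma gave coefficients of -0.85 ± 0.14 (SE) for the brighter Dusp4 probe, -0.58 ± 0.15 for Dusp5, -0.37 ± 0.11 for Dusp6, -0.27 ± 0.10 for Dusp14 and -0.03 ± 0.24 for Dusp1, each from 2 sucrose and 2 starch arrays. The limma adjusted p-values were 0.532, 0.536, 0.554, 0.583 and 0.979, so no member passed 0.05, nor did any probe (0.0%), while 3704 probes had an unadjusted p under 0.05. Of the 9 member probes, 5 passed the unadjusted threshold, both of Dusp4, both of Dusp5 and that of Dusp6, against 8.8% of all probes. Without the filter on dim probes 3 did, without Dusp6 and the dimmer Dusp5 probe, against 5.97% of all, and under normexp or a trended prior 7 did, with 2 of Dusp14 added, against 10.5% and 11%. The lowest adjusted p of any member in 9 settings was 0.0812 for Dusp4, under normexp. For genotype, limma gave 0.40 ± 0.14 for Dusp4 and 0.55 ± 0.15 for Dusp5, each with an adjusted p of 0.733, and no probe passed the adjusted threshold. At an unadjusted p under 0.05 were 3 of the 9 member probes, 1 of Dusp4 and both of Dusp5, against 2704 or 6.42% of all probes. Without the filter this count was 1, a Dusp4 probe, against 4.94% of all probes, and neither Dusp5 probe passed.

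The rest of the Dusp family had median changes on sucrose close to 0. Of 19 other Dusp genes listed, 17 were detected. The median was 0.06 for wild-type and -0.02 for heterozygous mice. Of the 17, 5 were lower on sucrose in both genotypes. Among the 6 other MAP kinase phosphatases, 3 were lower and 3 higher in each genotype, with medians of 0.01 and -0.01, of which the latter turned sign with the scaling. Dusp2, an inducible nuclear phosphatase, was the highest, with 0.41 in wild-type and 0.23 in heterozygous mice. Dusp9, an ERK phosphatase, was the lowest by the mean diet change (-0.14 and -0.07). Of the 11 detected atypical members, Dusp13 alone passed 2-fold, with 0.0206 and 0.0414 on the wild-type starch and sucrose arrays and 0.019 and 0.0414 on the heterozygous ones, and Dusp19 was the lowest (-0.16 and -0.03).

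Sprouty and Spred proteins restrain the pathway upstream of ERK and several are themselves induced by it. Of the 7 genes, 6 were lower on sucrose in each genotype, with medians of -0.18 and -0.24 and none past 2-fold. Spry4 was the lowest (-0.52 and -0.27) and Spry1 the highest (-0.08 and 0.34). Spred2 gave -0.27 and -0.31, and Spry2 -0.18 and -0.42. Spry4, a dim gene with levels of 0.0602 to 0.106, was also higher in heterozygous mice on both diets, by 0.30 and 0.54. Dusp5 and 24.2% of all genes were higher on both diets too. So were Spry3, Spred2 and Spred3, while Spry1, Spry2 and Spred1 were not.

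The kinases that the phosphatases act on had smaller median changes. Of 10 MAP kinases, 3 were lower in wild-type and 8 in heterozygous mice, with medians of 0.08 and -0.05. Mapk7, the gene of ERK5, was the highest (0.17 and 0.24) and Mapk11, a p38 kinase, the lowest (-0.18 and -0.19). The 10 upstream kinases had medians of 0.12 and 0.04, from Map2k5 (0.40 and 0.20) to Map2k3 (-0.01 and -0.18). Of 11 nuclear effectors of ERK, 7 and 9 were lower, with medians of -0.12 and -0.08. Rps6ka2, an ERK-activated kinase, was the lowest (-0.44 and -0.28) and Rps6ka1 the highest (0.18 and 0.19). Srf, which encodes the factor that binds CArG boxes, gave -0.42 in wild-type and 0.00 in heterozygous mice. None of the genes in these kinase and effector lists passed 2-fold.

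**Figure D4:**
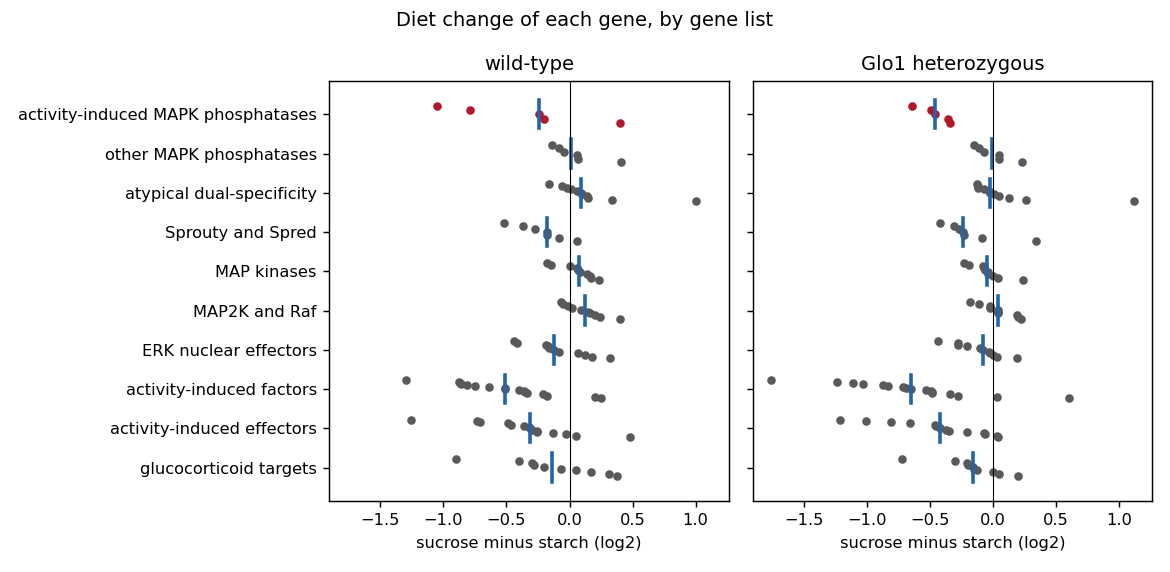
Log2 change on sucrose (x axis) of each detected gene in 10 lists (rows), in wild-type (left) and Glo1 heterozygous mice (right), 1 array per group; blue bars are list medians. The phosphatases with activity induction (red) have medians of -0.24 and -0.46, and the other MAP kinase phosphatases of 0.01 and -0.01. The latter list holds Dusp2, which is also inducible, at 0.41 and 0.23. The lists were chosen with earlier results of these data known.

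Activity-induced genes outside the family were also lower on sucrose. Of 17 transcription factors, 15 were lower in each genotype, with medians of -0.51 and -0.65, and of 15 effectors 13 were lower in each, with medians of -0.31 and -0.42. Past 2-fold were Egr2, which stood at 1.72 and 0.695 on the wild-type starch and sucrose arrays and at 2.15 and 0.633 on the heterozygous ones, and Inhba, which encodes an activin subunit, at 1.85, 0.773, 1.87 and 0.812. Fos, Fosb, Egr1 and Arc passed 2-fold in heterozygous mice, by -1.24, -1.03, -1.11 and -1.01. Jun was the highest factor (0.20 and 0.60) and Plk2 the highest effector (0.48 and 0.03). Nr4a2 was the factor that, like Dusp1, was higher in wild-type (0.25) and lower in heterozygous mice (-0.34). Dusp1 is also induced by glucocorticoids, and of 10 other genes with that property 6 and 8 were lower, with medians of -0.13 and -0.15, from Cdkn1a (-0.90 and -0.72) to Sgk1 (0.38 and 0.20). These comparisons and those of the members share the same arrays.

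Some lists of markers of neighbouring tissue and of cortical cells differed over the arrays together with members. On sucrose all 6 olfactory bulb markers were lower, by medians of -2.43 (wild-type) and -0.83 (heterozygous). Between the sucrose arrays all 6 were higher with heterozygosity, by a median of 1.47. Dusp4 and Dusp5 had the same signs in these comparisons and, like the markers, larger diet changes in wild-type mice. On starch the markers had a genotype median of -0.09, where Dusp4 gave 0.19 and Dusp5 0.34. All 10 striatal markers were higher on sucrose in wild-type mice and lower in heterozygous mice, with medians of 0.99 and -0.99, and the striatal sums put the arrays in the same 2 pairs as Dusp1. The medians of the 8 cortical excitatory markers also had the signs of Dusp1, though not every marker did. For diet the medians were 0.27 in wild-type mice (8 of 8 higher) and -0.05 in heterozygous mice (4 lower and 4 higher). For genotype they were 0.13 on starch (1 lower and 7 higher) and -0.23 on sucrose (5 lower and 3 higher). For diet, the 5 interneuron markers had medians of -0.06 and -0.23, with 3 lower and 2 higher in each genotype. The lowest was Gad1, which makes GABA, at -0.40 and -0.44, and the highest was Pvalb, at 0.32 and 0.02. The 5 astrocyte markers had medians of -0.21 (5 of 5 lower) and -0.08 (3 lower and 2 higher). Other cell lists had smaller diet medians, of -0.01 and -0.05 for pan-neuron and -0.08 and 0.03 for oligodendrocyte markers. Those of microglia were -0.05 and -0.04, and those of endothelium -0.06 and -0.10. No listed olfactory bulb or striatal marker was below background on any array. The 9 choroid plexus markers, with medians of 0.34 and 3.68, did not share the order of any member. All 7 blood genes were lower on sucrose, by medians of -1.35 and -0.81, as Dusp4, Dusp5, Dusp6 and Dusp14 were. With heterozygosity all 7 were higher on sucrose, by a median of 0.27, as Dusp4 and Dusp5 were. On starch the genotype median of the blood genes was -0.24. The part of these tissues and cells in the members' values was not tested.

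**Figure D5:**
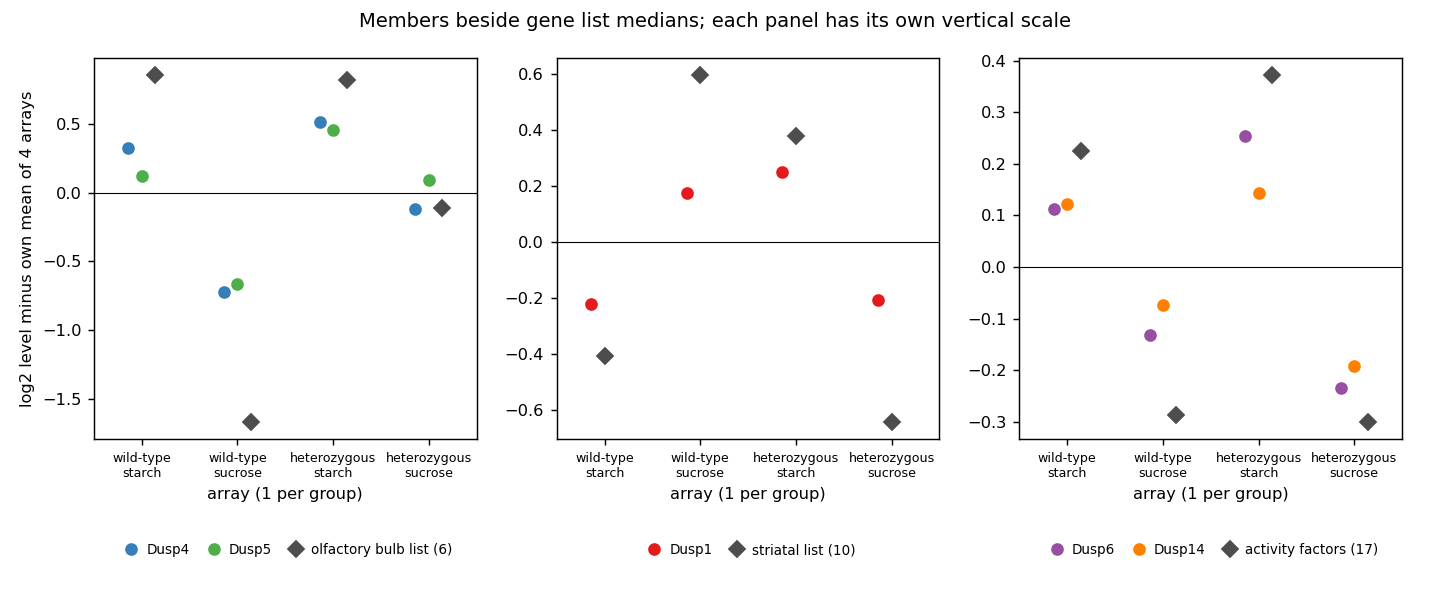
Log2 level on each array minus the mean over the 4 arrays, for Dusp4 and Dusp5 beside the median of 6 olfactory bulb markers (left), Dusp1 beside the median of 10 striatal markers (middle), and Dusp6 and Dusp14 beside the median of 17 activity-induced transcription factors (right). The pairings were chosen after the values were seen, and each panel has its own vertical scale. In each, members and list lie on the same side of 0 on all 4 arrays, except Dusp5 on the heterozygous sucrose array. The medians of the olfactory bulb markers, the activity-induced factors and the 7 blood genes (not shown) share their signs on all 4 arrays. For Dusp4, Dusp6 and Dusp14 the signs therefore do not single out the list shown.

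The genes most alike to each member were found by the Euclidean distance between profiles over the 4 arrays, each centred on its own mean, among 20650 other genes. Nearest to Dusp4 were Stx11 (distance 0.0774 on the log2 scale), Dlx6os1 (0.0878) and Cacng5 (0.0947), and nearest to Dusp5 were S100a8 (0.0779), A830012C17Rik (0.0978) and A930015D03Rik (0.108). For Dusp1 they included Wdr72 (0.0582) and Gm35266 (0.0684). Within 0.1 of Dusp4, Dusp5 and Dusp1 lay 3, 2 and 4 genes. A fixed distance takes in fewer genes where changes are larger, so such counts do not measure how common a shape is. For Dusp6 they were Il12a (0.0196), Hivep3 (0.0362) and Glra3 (0.0402) among 61 genes within 0.1, and for Dusp14 they were 4930429D17Rik (0.0173), Gm1043 (0.0286) and March11 (0.0289) among 217. Among the members, Dusp6 and Dusp14 were the closest pair, at 0.13, followed by Dusp4 and Dusp5, at 0.31, and the farthest pair was Dusp1 and Dusp4, at 1.09. Nearest to the mean profile of the 5 were Lyz2, Wif1, Ankrd6, Fbxw19 and Nt5e, at 0.0236 to 0.0558.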

How the data were processed

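Prefrontal cortex RNA of 4 groups was measured on 1 single-colour Agilent array per group, each a mixture of 3 RNA samples. Per the file headers, the authors' intensity values came from Agilent Feature Extraction (version 11.5.1.1, per the submitters' processing notes), with spatial and multiplicative detrending, surrogates for low signals and no scaling across arrays. A ratio per spot was also deposited by the authors. These ratios equalled the processed signal divided by a constant per array close to its 75th percentile (1780.61 for wild-type starch), on a linear scale, without centring. Per the file headers, flags of other kinds marked outliers and background, and probe coordinates were on mm9.

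Processed signals were divided by the 75th percentile of each array's non-control spots and put on a log2 scale. Outlier spots were left out, the spots of a probe were averaged, and a gene was its brightest probe among the 42094 well above background on all 4 arrays. Of 20655 gene names, 18294 were RefSeq symbols (GRCm38.p6), 872 older symbols and 1489 neither, and all 5 members were symbols. Changes were counted at 2-fold, and at 1.5-fold as an alternative. The additive fit used limma 3.58.1 in R 4.3.3 with Benjamini-Hochberg adjustment over all probes. It was also run on simulated data, with planted diet changes larger than those of the members and no interaction. That run therefore does not show how the fit performs for changes of the members' size. The signal was compared under normexp (offset 50), quantile, median and cyclic loess scaling, with outlier spots, with the authors' ratios, without the filter, and with the mean over probes, and the fit also with a trended prior.

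The members and gene lists were chosen with earlier results of these data known. Named genes were all members, genes of the lists past 2-fold, the highest and lowest of each list by the mean diet change, and the 3 genes nearest to each member, of which 1 is not reported here. A few others (Srf, Spred2, Spry2, Nr4a2) were named after their values were seen. The number of arrays limits the precision. Each array had its own slide position, so position and group cannot be told apart.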

Additional observations from a re-analysis of the deposited data

Results flagged for a closer look

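Members whose change under 1 contrast had opposite signs in the 2 levels of the other factor are given here. With 1 array per group these differences were not tested. For Dusp1 the diet change was 0.40 without and -0.46 with heterozygosity, and the genotype change was 0.47 on starch and -0.38 on sucrose, so that either difference was -0.86. For Dusp6 the genotype change was 0.14 on starch and -0.10 on sucrose, a difference of -0.24. For Dusp14 it was 0.02 and -0.12, a difference of -0.14. Over 9 settings the difference ran from -0.89 to -0.84 for Dusp1, from -0.27 to -0.22 for Dusp6 and from -0.19 to -0.03 for Dusp14.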

How the results depend on the processing

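Of 240 values of single members under 8 alternatives, 232 moved by less than the spot-to-spot SD. Many of these had little room to move. Dropping the filter, keeping outlier spots and using the authors' ratios gave the main values for every member. The mean over probes could not move Dusp1 and Dusp6, which have 1 probe each. The only member value past 2-fold, that of Dusp4 for diet in wild-type mice, kept its sign. The mean over probes moved the median of the 5 members to 0.27 for genotype on starch and to -0.03 for the interaction. For heterozygous sucrose against wild-type starch, cyclic loess gave a median of -0.21 and quantile normalisation -0.19. Below 2-fold, Dusp1 changed sign in that comparison (-0.03 to 0.05) and Dusp14 for genotype on starch (-0.10 to 0.12). The additive limma fit called 28 probes for diet under normexp and 1 with a trended prior, against 0 otherwise, and no member was among them. The count of probes past 2-fold for diet was 554 in wild-type and 614 in heterozygous mice, against 3304 and 2984 without the filter, 175 and 224 under normexp, and 2516 and 2043 at 1.5-fold. For genotype it was 395 on starch and 603 on sucrose, against 3052 and 3083, 100 and 230, and 2053 and 1789. For both factors it was 766, against 3559, 232 and 3089, and for the interaction 1155, against 5374, 356 and 3866. The filter itself sets which dim probes are counted, and the cause of the other shifts was not tested. No paired analysis was possible because each group had 1 array, and no array could be left out of a comparison. Dim probes such as A_55_P2063237 of Dusp5 have no repeated spots at their signal to set an SD. Under normexp the additive fit gave A_55_P2063237 coefficients of -0.285 for diet and 0.159 for genotype. The brighter Dusp5 probe had -0.54 and 0.539 there.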
